A study of Drosophila melanogaster with 2 samples.

Results

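The genes described here are 40 Drosophila melanogaster genes of DNA replication and the cell cycle, taken by symbol from a list. They are 40 of 13945 protein-coding genes on the 6 chromosome arms, and all 40 symbols were found in the annotation. By role they fall into 13 origin licensing genes, 3 genes of the replication fork and nucleotide supply, and 15 cyclins and kinases. The other members are the Cdc25 phosphatases stg and twe with the Cdk inhibitor dap, 4 E2F genes, and fzy and fzr, which activate the anaphase-promoting complex or cyclosome (APC/C). The assay was chromatin immunoprecipitation and sequencing (ChIP-seq) of the protein CG12744, assayed as a transcription factor. It used flies that carry a transgene for CG12744 with green fluorescent protein (GFP) at its C-terminus, and an antibody against GFP. Whole embryos of both sexes, 0 to 24 h old, were collected as 1 group with 2 biological replicates, which the labels number 2 and 4. No other genotype, age or treatment was present, and a control named in the records was not used here. Whole embryos of this age mix stages with rapid division and stages in which most cells have stopped dividing, so a peak cannot be assigned to dividing cells.

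Replication starts where the origin recognition complex (Orc proteins) recruits dup, the fly Cdt1, and the ring of Mcm proteins. Geminin blocks dup so that an origin is licensed once in a cycle. Cyclins bound to their kinases then drive entry into S phase and mitosis, and the Cdc25 phosphatases remove the inhibitory phosphate that Wee1 and Myt1 place on Cdk1. E2f1 with its partner Dp activates many S phase genes, E2f2 represses genes together with Dp, and the retinoblastoma protein Rbf binds both. In the early embryo many of these proteins are supplied by the mother, and later divisions depend on transcription from the embryo, with stg as the best known regulated step.

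DNA under the summits of thresholded promoter peaks is shown first for Mcm5, a subunit of the replicative helicase, for the kinases Cdk1, Cdk7 and aurA (Aurora A), and for fzr, an APC/C activator. The summits of these stretches lie outside annotated exons, and the stretches are shortened where an exon begins. They are a selection of such peaks. The summits at Orc1, RnrS and CycB also lie between genes and the highest Dp summit lies in an intron, and these are not printed. They are from the Release 6 sequence (dm6), each reads 5′ to 3′ on the strand of the named gene, and capitals mark a searched motif. Mcm5 is from chr3R:10788227-10788345 on the plus strand, Cdk1 from chr2L:10386389-10386589 on the minus strand and Cdk7 from chrX:5309048-5309241 on the minus strand. The aurA stretch is chr3R:11962871-11963071 on the plus strand and the fzr stretch is chrX:4679886-4679987 on the minus strand.
Mcm5: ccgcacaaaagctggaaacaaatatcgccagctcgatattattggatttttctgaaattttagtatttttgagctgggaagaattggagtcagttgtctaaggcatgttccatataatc
Cdk1: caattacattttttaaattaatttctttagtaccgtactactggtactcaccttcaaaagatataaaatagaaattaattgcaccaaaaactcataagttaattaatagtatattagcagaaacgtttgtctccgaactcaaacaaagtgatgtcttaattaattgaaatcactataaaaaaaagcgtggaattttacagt
Cdk7: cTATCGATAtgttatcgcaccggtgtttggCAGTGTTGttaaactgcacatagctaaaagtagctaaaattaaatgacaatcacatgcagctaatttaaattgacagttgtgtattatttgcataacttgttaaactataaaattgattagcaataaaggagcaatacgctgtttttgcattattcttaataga
aurA: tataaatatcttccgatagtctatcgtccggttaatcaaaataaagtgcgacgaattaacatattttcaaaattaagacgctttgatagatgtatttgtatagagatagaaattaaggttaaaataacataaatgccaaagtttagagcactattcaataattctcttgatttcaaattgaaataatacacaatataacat
fzr: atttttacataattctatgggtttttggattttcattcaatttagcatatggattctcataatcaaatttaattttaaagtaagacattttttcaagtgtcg
The Cdk7 stretch holds TATCGATA, the site of the factor Dref, and CAGTGTTG, which is CAACACTG read on the other strand. The TATCGATA is centred 88.5 bp from the summit on the side of the neighbouring gene snf, whose start is 94 bp from the summit. It therefore cannot be given to Cdk7 alone. None of the searched motifs lies in the printed stretches of Mcm5, Cdk1, aurA or fzr. The shortened Mcm5 stretch leaves out a CAACACTG centred 25.5 bp from the summit. The fzr stretch has its summit at position 2, so it shows hardly any DNA upstream of the summit.

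The second set of sequences shows the E2F sites of 5 member promoters that had no thresholded promoter peak, since E2F sites are the textbook element of replication genes. Each line gives a site in capitals with 10 bases to each side, on the strand of the gene, and a site that reads GCGCCAAA is TTTGGCGC on the other strand. The sites lie at chr2L:13829837-13829864 for Orc5, chrX:6674390-6674417 for Mcm6, chr2L:10327924-10327951 for RnrL and chr3R:29255796-29255823 for stg. For CycE they lie at chr2L:15746707-15746734 and chr2L:15746684-15746711. The genes Orc5 and Mcm6 are on the plus strand and RnrL, stg and CycE are on the minus strand.
Orc5: gagggaataaTTTGGCGCcatttcaatg
Mcm6: tcagaaaaagGCGCCAAAaccgagcaaa
RnrL: atgactttaaTTTGGCGCctttttgtgc
stg: aaaagctcgcGCGCCAAAatcagtggcc
CycE, first site: tgttgcatttTTTGGCGCttcggatccg
CycE, second site: atccgcctgtTTTGGCGCgttcctcatg

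The deposit holds 2758 thresholded peaks, besides 30000 pooled peaks and as many again in either replicate. Peaks are ranked here within each list by the signal value that the authors' peak caller gave, whose scale is not stated, with rank 1 the highest. Signals run from 17.3 to 1148 in the pooled list and from 68.4 to 1148 in the thresholded list. A promoter peak has its summit within 500 bp of any annotated start site of a gene. Read depth per library is unknown from these files.

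Thresholded promoter peaks lay at 11 of the 40 genes, or 27.5%, against 14.4% of all protein-coding genes. They were Orc1, dpa, Mcm5 and dup among the licensing genes, RnrS, the kinases Cdk1, Cdk7 and aurA, the cyclin CycB, the E2F partner Dp, and fzr. In the pooled list at any rank, 37 of the 40 genes had a promoter peak, against 54.7% of all protein-coding genes, and Mcm3, Mcm10 and Cdk2 had none. The peaks were of moderate height. The median signal of the highest promoter peak was 89.5 over the 11 members with a thresholded one and 102.7 over the 2010 protein-coding genes with one, and the highest at a member ranked 473.

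The 3 main roles had shares between 25% and 30.8% with a thresholded promoter peak. It was 4 of 13 origin licensing genes (30.8%), 4 of 15 cyclins and kinases (26.7%) and 1 of 4 E2F genes (25%). They differed more below the threshold. Among the 5516 highest pooled peaks, 24 of the 40 members (60.0%) had a promoter peak, against 24.9% of all protein-coding genes. That number was 10 of 15 cyclins and kinases and 3 of 4 E2F genes, but 5 of 13 licensing genes. The 3 genes stg, twe and dap were all in this range and none was thresholded.

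Ranks 2759 to 5516 held the highest promoter peak of 13 members, or 32.5%, against 10.5% of protein-coding genes. A further 8 members (20%) were at ranks 5517 to 10000, 5 (12.5%) at ranks 10001 to 30000, and 3 had no promoter peak in the pooled list. For protein-coding genes these shares were 10.7%, 19.1% and 45.3%. The median rank over genes with a promoter peak was 3779 for 37 members and 6288 for 7634 protein-coding genes. By role the median rank was 6290 for 11 licensing genes, 3718 for 14 cyclins and kinases and 4080 for 4 E2F genes. At the threshold itself, RnrS ranked 2712 and CycB 2660 just inside, and the first members outside were stg at 3120, Mcm2 at 3336 and CycA at 3402. Members are not replicates of a condition, and no test was made on these counts.

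**Figure D1:**
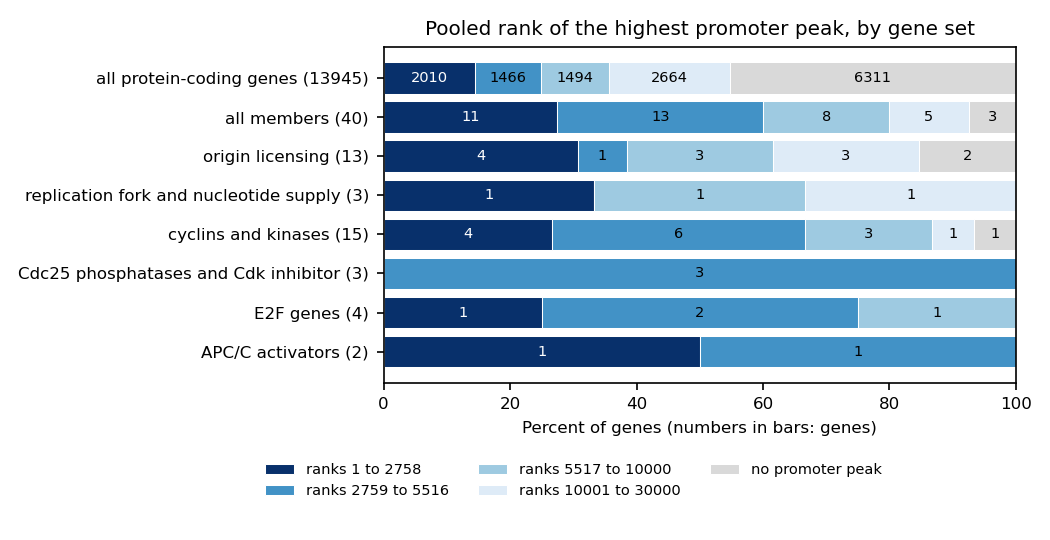
Share of genes (percent, x axis) by the pooled rank of their highest promoter peak, for all protein-coding genes, all 40 members and each role. Numbers in the bars are genes. The members have 24 genes in the upper bands, ranks 1 to 5516, and 3 with no promoter peak, while 45.3% of protein-coding genes have none.

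Among origin licensing genes the highest peak was at dpa, which encodes the helicase subunit Mcm4. Its summit lay at position 7500017 of chromosome arm 2R, in the 5′ UTR, with a signal of 149.8 and rank 598. In the replicates the matched peaks ranked 551 and 788. The summit lies between the start sites of dpa, 128 bp downstream of the upstream one, whose position is 2 bp from the start of didum, a myosin gene, on the opposite strand. The peak cannot be given to one of these genes alone.

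The licensing factor dup had 2 thresholded promoter peaks. The higher one, at position 15380690 of arm 2R, had a signal of 118.5 and rank 979, with ranks 979 in replicate 2 and 1059 in replicate 4. The lower one, at position 15381376, had a signal of 70.1 and rank 2642, with ranks 1647 and 4710. Both summits are nearer to a start of SRPK, a kinase of splicing factors on the opposite strand, than to a start of dup. The distances are 34 bp against 76 bp for the higher peak and 73 bp against 388 bp for the lower one. The higher summit lies in the 5′ UTR of dup, 298 bp downstream of the first dup start and 76 bp upstream of an internal one. The lower summit lies in an intron of SRPK.

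Orc1, the largest subunit of the origin recognition complex, had a peak that is near no other start site. Its summit at position 7525784 of arm 2R lay 68 bp upstream of the start, with a signal of 83.7 and rank 1885. It ranked 2886 in replicate 2 and 1420 in replicate 4, so it falls outside the 2758 highest peaks of replicate 2. The Mcm5 peak, at position 10788245 of arm 3R, had a signal of 81.5 and rank 1961, with ranks 2468 and 1607 in the replicates. Its summit is 279 bp upstream of Mcm5 but 19 bp from the start of Art1, an arginine methyltransferase gene that runs in the other direction.

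The other 9 licensing genes had no thresholded promoter peak. Mcm2, a helicase subunit, came closest, at pooled rank 3336, with ranks 4377 and 3660 in replicates 2 and 4, of which the first is of a summit 297 bp away. Orc5 ranked 6290 in the pooled list, geminin 7667, Orc6 9283, Mcm6 10529, Mcm7 16639 and Orc2 19577. Mcm3 had no promoter peak in any list, and Mcm10, an initiation factor, had one at rank 22653 in replicate 2 only. The licensing genes therefore include members near both ends of the range, with dpa and dup among the highest and Mcm3 with nothing. Mcm3 lay 1107 bp from a thresholded summit of rank 1536, which is 52 bp from a start of another gene.

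The replicates disagreed at several of these lower peaks. Orc5 ranked 4647 in replicate 2 and 24946 in replicate 4, and Orc6 ranked 7321 and 24413. Geminin went the other way, at 26410 and 3650, and Mcm7 had no promoter peak in replicate 2 and rank 9529 in replicate 4. The ranks were closer together at Orc2, 17787 and 27482, and at Mcm6, 11581 and 18816. These values are low in at least 1 replicate and lie deep in lists that the deposited records describe as peaks and background together.

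Of the fork and nucleotide genes, RnrS, the small subunit of ribonucleotide reductase, had a peak near the threshold. Its summit at position 11985585 of arm 2R lay 192 bp upstream, with a signal of 69, rank 2712, and ranks 2180 and 5252 in the replicates. The start of CG34231 lies 423 bp from it. RnrL, the large subunit, reached pooled rank 9791 with ranks 27792 and 9071. PCNA, the sliding clamp, reached pooled rank 18688, with rank 12617 in replicate 2 and no peak in replicate 4. In the pooled list the signal was 69 at the small subunit and 33.6 at the large one.

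Among cyclins and kinases, Cdk7, the kinase that activates other Cdks, had the highest promoter peak. The summit at position 5309148 of chromosome X lay 165 bp upstream of Cdk7 and 94 bp from the start of snf, a splicing factor gene on the opposite strand. The signal was 96.7 and the rank 1448, with ranks 1512 and 1884. The aurA peak, at position 11962971 of arm 3R, lay 153 bp upstream of aurA and 166 bp from CG3281, with a signal of 89.5, rank 1668, and ranks 1301 and 1853. Both kept a place among the 2758 highest peaks of each replicate.

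Cdk1, the mitotic kinase, and its cyclin CycB also had thresholded peaks. The Cdk1 summit, at position 10386489 of arm 2L, lay 227 bp upstream of Cdk1 and 173 bp from the start of mRpS7, a mitochondrial ribosomal protein gene, with a signal of 81.3 and rank 1965. Its replicate ranks were 1756 and 3031. The CycB summit, at position 22807052 of arm 2R, lay 104 bp upstream with no other start within 500 bp, and had a signal of 69.8 and rank 2660. Its ranks were 1620 in replicate 2 and 7832 in replicate 4, the widest gap among the thresholded promoter peaks of the members. CycB therefore rests mainly on replicate 2.

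Of the other mitotic cyclins, CycA had pooled rank 3402, with 2283 in replicate 2 and 16526 in replicate 4. CycB3 had pooled rank 3779, with 1846 and 22723, the replicate 4 summit lying 565 bp from the pooled one. The highest promoter peaks of all 3 mitotic cyclins thus ranked higher in replicate 2. The mitotic kinase polo and the spindle checkpoint kinase BubR1 were the other way round. Their pooled ranks were 3641 and 3802, and polo ranked 8049 in replicate 2 and 2105 in replicate 4, while BubR1 ranked 9173 and 2200. CycE, the S phase cyclin, had pooled rank 3658 with 5836 and 2805.

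The G1 kinase Cdk4 had pooled rank 4082, with 10868 and 12364 in the replicates at summits 850 bp and 1411 bp from the pooled one, and its partner CycD had 7021, with 9687 and 8255. The Aurora B kinase gene aurB had pooled rank 6569 with 15966 and 4788. The inhibitory kinases Myt1 and Wee1 had pooled ranks 8735 and 16304, and neither had a promoter peak in replicate 4. Their ranks in replicate 2 were 12520 and 10542. Cdk2, the partner of CycE, had a promoter peak in replicate 2 only, at rank 12708. The inhibitory kinases and Cdk2 were thus at the lower end of this role.

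The Cdc25 phosphatase stg had the highest promoter peak of the members outside the threshold. Its summit lay 6 bp downstream of a start site with a signal of 64.2, and it ranked 3120 in the pooled list, 3827 in replicate 2 and 3605 in replicate 4. The meiotic Cdc25 twe had pooled rank 5232 with 16794, at a summit 227 bp away, and 3239. The Cdk inhibitor dap had pooled rank 3770 with 3501 and 5903, and its summit lay 32 bp downstream of the start. At stg the ranks in both replicates were alike, and each lay outside the 2758 highest peaks of its list.

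Dp, the partner of E2f1 and E2f2, had the highest promoter peak of all members and 3 thresholded ones. The highest, at position 13223402 of arm 2R, lies in an intron 189 bp upstream of an internal start site, with a signal of 166.5 and rank 473, and ranked 659 and 399 in the replicates. No other gene starts within 500 bp of it. The second, at position 13222420, lies 13 bp upstream of the first start of Dp and 39 bp from the start of Fsn, an F-box protein gene on the opposite strand, with a signal of 84, rank 1874 and replicate ranks 1563 and 3456. The third, at position 13223982, lies 391 bp downstream of the internal start, with a signal of 73.8, rank 2401 and replicate ranks 3236 and 1547. The intronic peak of rank 473 was the highest of the 3 in both replicates.

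The other E2F genes had lower promoter peaks. The highest promoter peak of E2f1 ranked 3765 in the pooled list, 2324 in replicate 2 and 6679 in replicate 4, with the replicate 4 summit 942 bp from the pooled one. E2f2 reached 4394, with 6746 and 3679. Rbf reached 6498, with 11099 and 6485. Within this role the order of signal in the pooled list was Dp (166.5), E2f1 (58), E2f2 (53.3) and Rbf (42.6), and Dp was the highest in both replicates too.

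The APC/C activators were split. The fzr peak, at position 4679986 of chromosome X, lay 449 bp upstream of a start with no other start within 500 bp. It had a signal of 91.1 and rank 1622, and its ranks of 1730 and 1600 in the replicates were close to each other. For fzy, the fly Cdc20, the pooled rank was 3811, with 4844 and 4054.

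**Figure D2:**
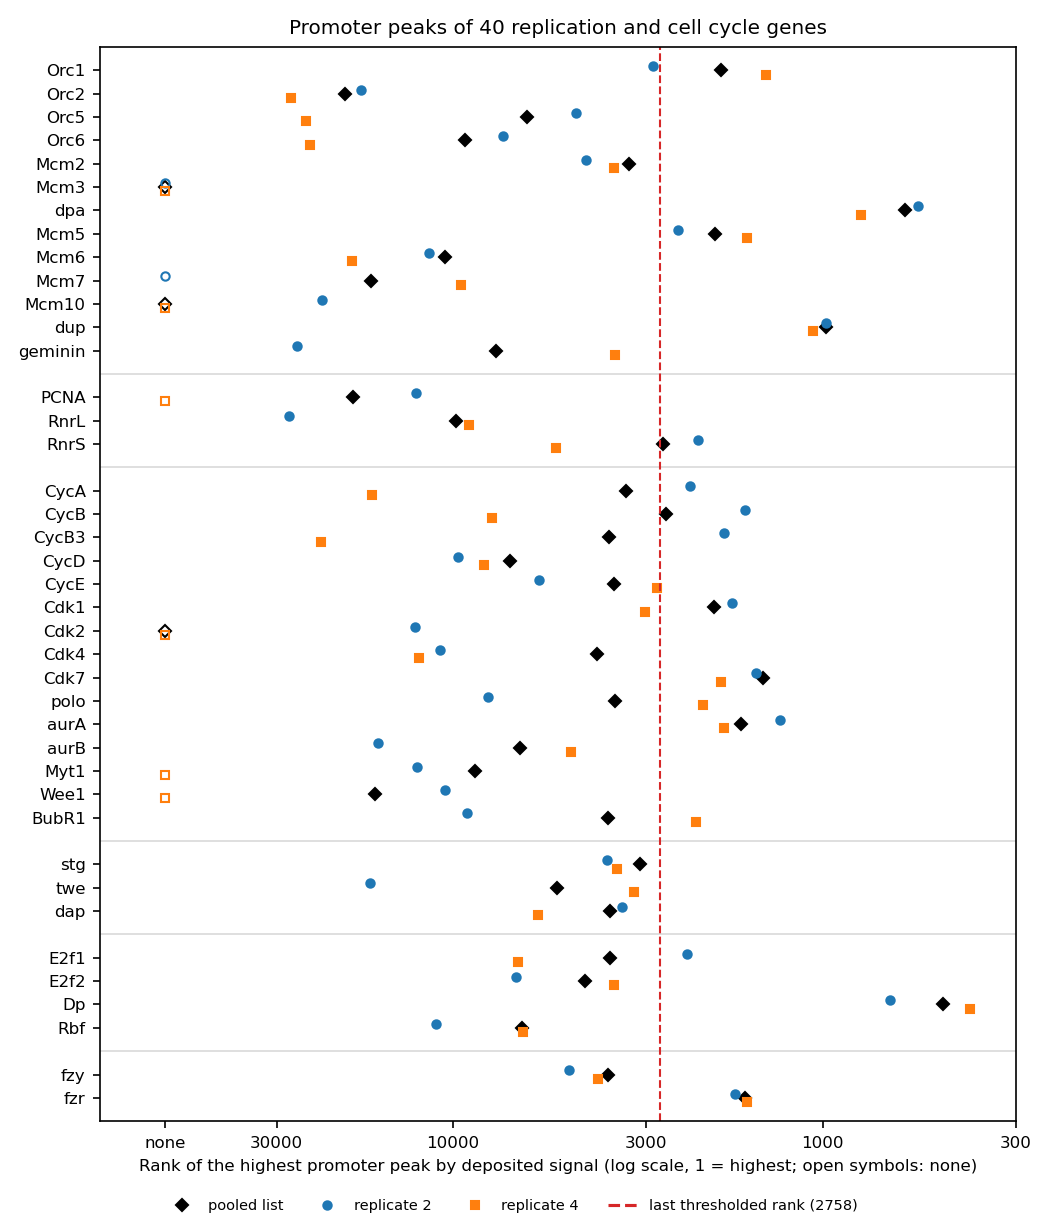
Rank of the highest promoter peak of each of the 40 members (log scale, rank 1 the highest, toward the right) in the pooled list, replicate 2 and replicate 4, taken in each list on its own. Open symbols at the left mark a list without a promoter peak, and the dashed line is the last thresholded rank, 2758. Dp, dpa and dup stand farthest right in all lists, while CycA and CycB3 are right of the line in replicate 2 only.

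The replicate lists held promoter peaks at most members. In replicate 2, 38 of 40 members had a promoter peak, against 56.2% of protein-coding genes, and in replicate 4, 34 of 40, against 51.0%. In both replicates it was 33 of 40, against 43.5%. The member's rank was higher in replicate 2 at 16 of those 33 and in replicate 4 at 17. The median ratio of the larger to the smaller rank was 1.73 for members and 1.69 for all protein-coding genes with a promoter peak in both.

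Taking the 2758 highest peaks of each replicate alone gave 13 of 40 members in replicate 2, against 14.6% of protein-coding genes, and 10 of 40 in replicate 4, against 13.7%. Both held 7 members (17.5%), against 10.3% of protein-coding genes. The 7 were dpa, Mcm5, dup, Cdk7, aurA, Dp and fzr. Replicate 2 alone added CycA, CycB3 and E2f1 and lacked Orc1, and replicate 4 alone added polo and BubR1 and lacked RnrS, CycB and Cdk1. All 14 distinct thresholded promoter peaks of the members had a summit within 100 bp in each full replicate list. Of the 33 members with a promoter peak in the pooled and both replicate lists, 27 had the summits of their highest peaks within 100 bp of each other. The other 6 were Cdk4, E2f1, CycB3, Mcm2, twe and aurA, with up to 1411 bp between summits, so their ranks in the lists need not be of 1 peak. Replicate values are of 2 collections and give no more than this range.

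A thresholded summit lay inside the gene at 5 of 40 members, or 12.5%, against 8.23% of protein-coding genes. At dpa, dup and Dp these are promoter peaks already given. Counting only summits over 500 bp from every start of the gene left Cdk4 and E2f1, or 2 of 40, against 4.83% of protein-coding genes.

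The Cdk4 summit, at position 16584012 of arm 2R, lies in an intron 3179 bp downstream of the nearest Cdk4 start. Its signal was 85.4 and its rank 1822, with 1982 and 1654 in the replicates. Cdk4 was also flanked by thresholded peaks outside the gene. One of rank 1062 lay 599 bp upstream of the most upstream start, just outside the promoter window, and one of rank 1743 lay 6491 bp along from that start, past the 3′ end.

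E2f1 had 2 such summits in its span of 40568 bp. The first, at position 21641733 of arm 3R, lies in an intron with a signal of 75.7 and rank 2281, and ranked 6233 and 1829 in the replicates. The second, at position 21626708, lies in a 5′ UTR exon with a signal of 68.6 and rank 2741, and ranked 3460 and 3953. Neither is within 500 bp of any start site, and replicate 2 placed the intronic one lower. A thresholded peak of rank 812 and signal 129.2 lay past the 3′ end of the gene.

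**Figure D3:**
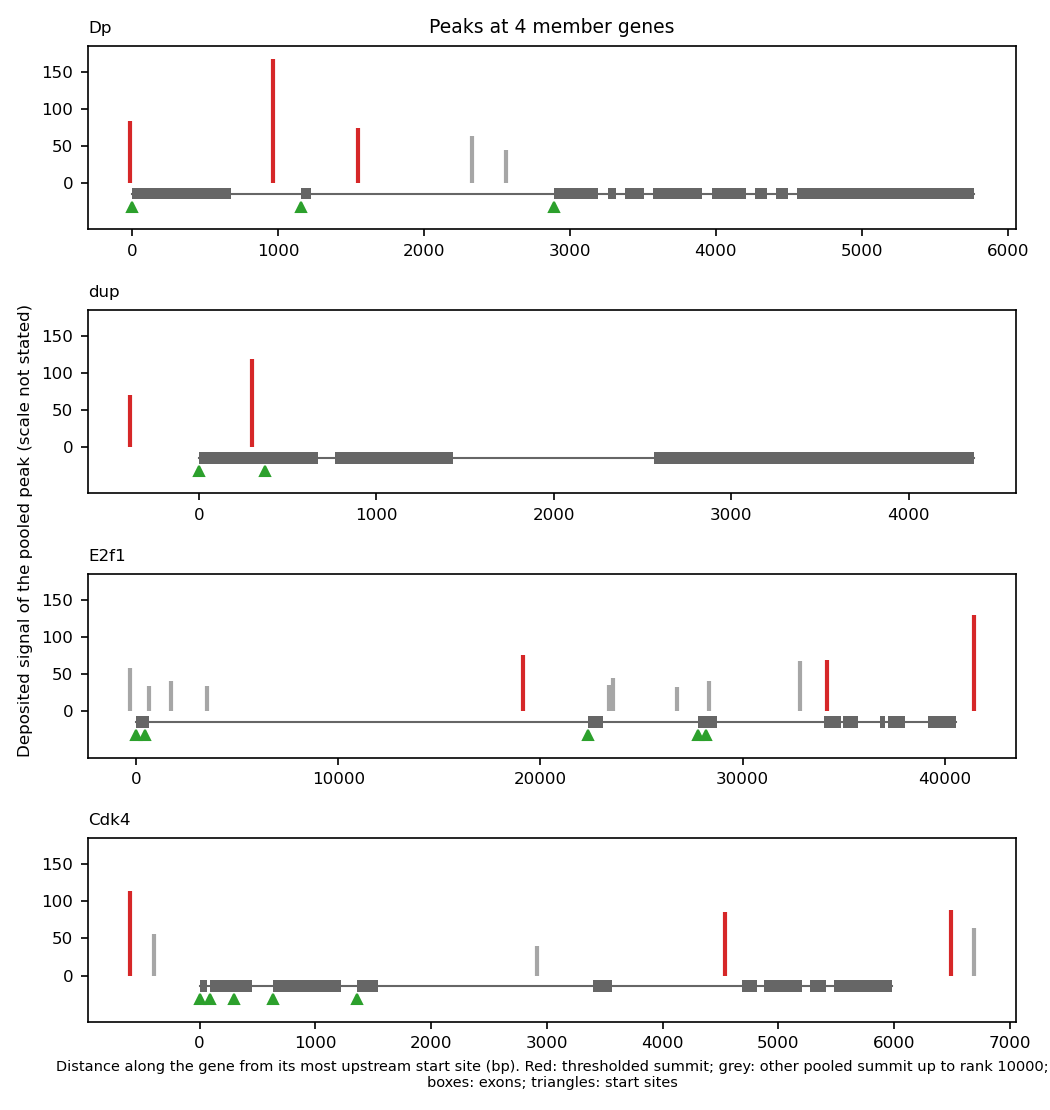
Peaks at Dp, dup, E2f1 and Cdk4. Each panel plots the deposited signal of pooled peaks (y axis, scale not stated) against distance from the most upstream start site of the gene (x axis, bp), with thresholded summits in red, other summits up to rank 10000 in grey, exons as boxes and start sites as triangles. At Dp the tallest line, signal 166.5, stands in the first intron beside the internal start, and at E2f1 the thresholded lines stand away from every triangle.

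The distance to the nearest thresholded summit varied widely among the 29 members without a thresholded promoter peak. The median was 8464 bp. Cdk4 (599 bp), Mcm3 (1107 bp), PCNA (1124 bp) and E2f2 (1907 bp) were the nearest, and CycE (163132 bp), CycA (136954 bp) and dap (123434 bp) the farthest. The summits nearest to Mcm3, PCNA and E2f2 lie 52 bp, 28 bp and 45 bp from a start of another gene. CycA and CycE therefore have promoter peaks of pooled ranks 3402 and 3658 with no thresholded summit over a long distance.

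Summits lay mostly upstream. Of the 14 distinct promoter peaks of the members, 12 (85.7%) were upstream of the member's nearest start, and the median was 159 bp upstream. Over all 1596 thresholded promoter peaks, 80.1% were upstream of the nearest start of any gene, with a median of 87.5 bp. The reference start differs between these values, so the medians are not measured alike, and what lies behind their difference was not tested. The 2 downstream summits were those at dpa and the third of Dp.

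**Figure D4:**
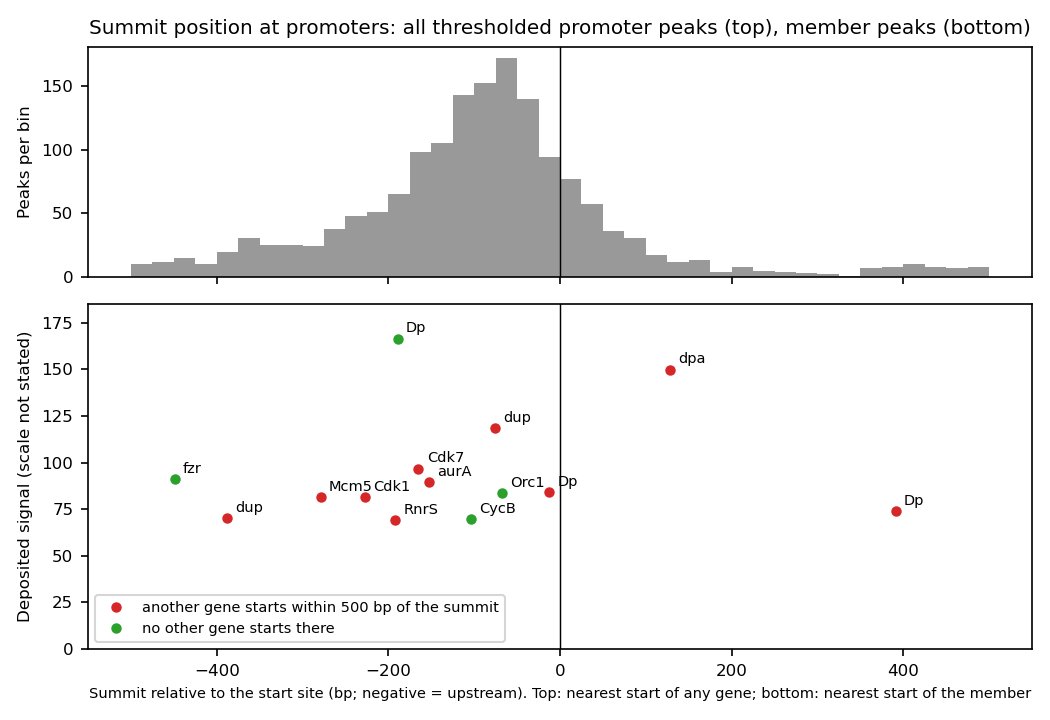
Position of summits relative to start sites (x axis, bp, negative upstream). The upper panel counts all 1596 thresholded promoter peaks in 40 equal bins around the nearest start of any gene, and the lower panel places the 14 member peaks by the distance from the member's own start and by deposited signal (y axis). Red points have another gene starting within 500 bp of the summit. Of the members' points 12 lie left of 0.

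Shared promoters were common. A start of another gene on the opposite strand lay upstream within 500 bp at 16 of 40 members (40%) and at 29.6% of protein-coding genes. Of these 16 members 7 had a thresholded promoter peak (43.8%), against 28.0% of protein-coding genes of this kind. Of the other 24 members 4 had one (16.7%), against 8.68%. The highest peak lay within 500 bp of another gene's start at 7 of the 11 members (63.6%) and at 60.4% of protein-coding genes with one, and at those members the bound gene cannot be told apart from its neighbour. Orc1, CycB and fzr, and the highest peak of Dp, had no such neighbour.

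Genes with more annotated start sites have more chances to be counted. Among members with 1 start site 6 of 26 had a thresholded promoter peak (23.1%), against 10.8% of protein-coding genes. With 2 start sites it was 3 of 9 (33.3%) against 20.3%, and with 3 or more it was 2 of 5 (40%) against 33.5%. CycB and Dp are the members with 3 or more starts and a thresholded promoter peak.

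E2F sites were searched as TTTGGCGC and TTTCGCGC in either orientation. TTTGGCGC was found no more than 100 bp from the summit at 3 of the 14 member peaks, at Orc1, dpa and the higher peak of dup, and at 1.94% of all 1596 thresholded promoter peaks. The centre of the site was 74.5 bp from the summit at Orc1, 56.5 bp at dpa and 57.5 bp at dup, so none was within 50 bp. No member peak held TTTCGCGC, which lay at 1.00% of all. The 3 peaks with a site are all at licensing genes.

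In the promoters of the members, from 250 bp before to 50 bp after any start, an E2F site was present in 10 of 40 (25%), against 4.61% of protein-coding genes. Of these 10, the 4 genes Orc1, dpa, dup and CycB had a thresholded promoter peak. Over all protein-coding genes with such a site it was 21.6%. Of the 30 members without a site 7 had a thresholded promoter peak, against 14.1% of such protein-coding genes. The sites printed above belong to Orc5, Mcm6, RnrL, stg and CycE, with pooled ranks from 3120 at stg to 10529 at Mcm6, and Orc6 is the last of the 10. Several of these sites are not at the peak that gives the rank. From the pooled summit they lie 43.5 bp away at RnrL, 54.5 bp at Orc5, 125.5 bp at Mcm6 and 146.5 bp at Orc6. The distances are 292.5 bp and 315.5 bp at CycE, 490.5 bp at stg and 644.5 bp at CycB.

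The other motifs were at none to 7 of the 14 member peaks. CAACACTG lay within 100 bp of 4 of the 14 summits, at Mcm5, Cdk7, the higher peak of dup and the Dp peak beside Fsn, and at 6.08% of all thresholded promoter peaks. At Dp its centre was 1.5 bp from the summit, and dup held it on both strands. The shorter CACTG, which lies inside CAACACTG, was found at 7 of 14 (50%) and at 46.8% of all. Both were singled out earlier on these data, so their counts are no separate evidence.

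The Dref site TATCGATA lay at Cdk7 only, or 1 of 14, against 7.64% of all. GGTCACACT, the core of core promoter motif 1, lay at CycB and at the lower dup peak, or 2 of 14, against 3.51%, and its last bases can overlap CACTG. The GAGA element GAGAG lay at none of the 14 within 100 bp, against 22.5%, and at 2 of 14 within 200 bp, against 43.2%. In promoters, CAACACTG was found in 9 of 40 members (22.5%) and 4.37% of protein-coding genes, TATCGATA in 7 (17.5%) and 10.2%, GGTCACACT in 8 (20%) and 6.78%, and GAGAG in 13 (32.5%) and 36.3%. A match is a description of the letters and does not show binding by any factor.

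Base composition at the summits spanned a wide range. Over the 201 bp centred on the summit, the G and C content of the 14 member peaks had a median of 37.8% and ran from 25.9% to 52.7%, while that of all thresholded promoter peaks had a median of 36.8%. The lowest values were 25.9% at aurA, 26.4% at Cdk1 and 27.4% at both RnrS and fzr. Only 2.26% of all thresholded promoter peaks were lower than aurA and 4.45% lower than RnrS and fzr. The printed stretches of aurA, Cdk1 and fzr show this as long runs of a and t. The highest were the Dp peaks of rank 1874 (52.7%) and rank 473 (51.2%).

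Other genes of the same pathways, in 5 lists with 90 genes found of 92 listed, had a thresholded promoter peak at 15 of 90, or 16.7%, beside the 14.4% of all protein-coding genes. The share was 5 of 32 other replication genes, 3 of 20 other cyclins, Cdks and their partners, 1 of 10 APC/C subunits, 5 of 20 checkpoint and chromosome segregation genes and 1 of 8 partners of the dREAM complex, which holds E2f2 and Rbf. The highest was Rbf2, the second retinoblastoma protein, at rank 619 with a signal of 146.9. SMC2, a condensin subunit, ranked 820, SMC1, a cohesin subunit, 1962, and Bub3, of the spindle checkpoint, 1294. Cdc16, an APC/C subunit, ranked 1422. The peaks at Rbf2, SMC2, Bub3 and Cdc16 are shared with a neighbouring gene and cannot be given to the named gene alone.

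Slbp, which binds histone mRNA, ranked 1774, the primase subunit Prim1 1828, and dUTPase, which removes dUTP, 1942. The peaks at Slbp, Prim1 and dUTPase, too, are shared with a neighbouring gene. The dUTPase summit had no summit within 100 bp in either replicate list. Among cyclins and Cdks outside the list, Cdk8 ranked 1799, CycG 2310 and CycH, a partner of Cdk7, 2538. These lists, too, were chosen with results of these data known, and their shares stand beside the background without a test.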

How the data were processed

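The dm6 peak lists of 1 group with 2 biological replicates were used. Per the labels, chromatin of whole embryos was sheared by sonication to a size range of 200 to 800 bp. The deposited narrowPeak lists give a signal for each peak, and the authors' text records say that replicate and pooled lists are peaks and background kept as input for the irreproducible discovery rate, and that the thresholded list was derived from them. Each deposited list also holds the −log10 of a q value, which was not used. Neither aligner nor peak caller was given in the sources used here, and read depth is unknown. The thresholded peaks have the signals of the 2758 highest pooled peaks.

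Summits were placed on Ensembl release 115 genes (Release 6, without transposable elements, all transcript starts), and coordinates are 1-based. Sequences, promoters included, were read from the Release 6 genome sequence of NCBI RefSeq. Motifs were searched on both strands. Replicate summits within 100 bp were matched. With 1 group, members that are not replicates and no condition, no test was made.

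The members, roles and lists were chosen with earlier results of these data known. All 40 members are accounted for. Of the other pathway genes, up to 3 per list with the highest peaks are named, and neighbours only where they share a member's peak. Of 92 pathway symbols, lmg and svn were not matched. Alternatives were other windows, thresholds, start-site rules, match distances and each replicate alone. Peak assignment was tested on simulated data. Python 3.11.15, numpy 2.4.6 and matplotlib 3.10.9 were used.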

Additional observations from a re-analysis of the deposited data

How the results depend on the processing

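With the 2758 highest peaks of a single replicate in place of the thresholded list, 10 to 13 of the 40 members had a promoter peak. The number with a thresholded promoter peak was 9 with a 250 bp window, 12 with a 1000 bp window and 8 when the peak had to cover the start. The shares of protein-coding genes were 11.8%, 16.5% and 9.90% in the last 3 of these settings and 10.5% with the nearest start only. The number fell to 3 of 40 with the 1379 highest peaks, against 7.72% of protein-coding genes, so the members did not exceed the background there. It fell to 7 with the nearest start only. With the 5516 highest pooled peaks it rose to 24, against 24.9% of protein-coding genes. Each replicate alone gave 13.7% to 14.6% of protein-coding genes. The nearest-start rule took out Mcm5, dup, Cdk1 and Cdk7, all with a neighbour's start closer to the summit. The stricter list left dpa, dup and Dp.

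Licensing genes went from 4 to 2 with the stricter list and to 2 with the nearest start, and were 3 to 4 with 1 replicate. Cyclins and kinases went from 4 to 0, to 2 and, in the looser list, to 10, and were 4 to 6 with 1 replicate. E2F genes went from 1 to 3 in the looser list and were 1 to 2 with 1 replicate, E2f1 being added without replicate 4. Members with a thresholded summit inside the gene went from 5 to 3 with the stricter list and to 2 away from start sites. With the 2758 highest peaks of 1 replicate, 4 to 6 members had a summit inside the gene. Away from start sites the share of protein-coding genes was 4.83%. For the stricter list and the single replicates no such share was computed, so those counts stand without a background. The 14 promoter peaks matched in both replicates became 9 at 50 bp and 7 among the 2758 highest peaks of each. With any pooled rank, 33 members had a promoter peak within 250 bp and 37 within 1000 bp. The share of protein-coding genes was computed only for the 500 bp window, where it was 54.7%, so these counts cannot be set against a background.

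No paired analysis was possible because there is 1 group and no comparison between groups. Limits are the unknown depth, the unstated signal scale, 2 replicates, and a control that was not used here.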
